A study of Homo sapiens with 6 samples.

Results

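Small nucleolar RNA (snoRNA) host genes are transcribed as ordinary spliced genes, and snoRNAs are cut out of their introns. Box C/D snoRNAs guide methylation and box H/ACA snoRNAs guide pseudouridylation of ribosomal RNA. The spliced host RNA that is left over mostly encodes no protein. Many of these RNAs begin with the 5′ terminal oligopyrimidine (TOP) run that is typical of ribosomal protein mRNAs, and several of them are broken down by nonsense-mediated decay (NMD), so that their level depends on translation as well as on transcription. GAS5, SNHG1 and ZFAS1 are among the host RNAs that have been studied as regulators of growth in tumour cells, colorectal ones included.

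Members were the genes of the table named SNHG followed by a number, together with GAS5, ZFAS1 and EPB41L4A-AS1, which gave 31 of 60612 genes. The study set 3 samples of HCT116 cells treated with PLOD3 siRNA against 3 samples treated with the control si NC, each for 2 days, to ask what PLOD3, a collagen lysyl hydroxylase, does in colorectal cancer. HCT116 is an established human colorectal cancer line, so each group is a single line, and the sequence of neither siRNA is stated. Total RNA was depleted of ribosomal RNA before sequencing. The labels do not say whether the samples of a group came from separate cultures. The p-values therefore measure only how far these samples vary, and that variation may be technical. In bulk RNA a smaller share of cells that express a gene and less RNA per cell cannot be told apart.

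Estimated counts summed to between 55416555 and 71736017 per PLOD3 siRNA sample and between 57457602 and 76802428 per si NC sample, and low counts piled up at multiples of 4, so a unit is not a read pair. PLOD3 itself was at 3.44, 3.40 and 4.05 FPKM (a fragment count divided by transcript length and by the size of the library) in PLOD3 siRNA and at 6.40, 7.16 and 6.22 FPKM in si NC. The epithelial markers EPCAM, KRT8, KRT18, KRT19 and CDH1 were all present, with summed levels of 559 to 635 FPKM in PLOD3 siRNA and 661 to 716 FPKM in si NC. Of the 5, 3 (CDH1, KRT18 and KRT19) were called lower in PLOD3 siRNA, against 19.3% of all tested genes. KRT19 had the opposite sign after correction for GC content (0.09, edgeR adjusted p = 0.268). When each sample was left out in turn, KRT18 was called in 6 of the 6 fits, CDH1 in 2 and KRT19 in 0. CDH1 also lost the call after correction for GC content and transcript length (edgeR adjusted p = 0.0521). The leukocyte genes PTPRC and CD3E, the fibroblast gene DCN and the endothelial gene CDH5 were listed without reads in every sample, but other genes of those lists had reads. The 4 leukocyte genes summed to 1.57 to 1.61 FPKM in PLOD3 siRNA and 0.628 to 1.40 FPKM in si NC, most of it CD68, which was not called. The 4 fibroblast genes summed to 1.39 to 1.85 FPKM in PLOD3 siRNA and 2.27 to 2.51 FPKM in si NC, nearly all of it COL1A1, which was called lower (log2 -0.50, edgeR adjusted p = 0.0158). COL1A1 lost the call after correction for GC content (-0.20, edgeR adjusted p = 0.227). The 3 endothelial genes summed to 0.0162 to 0.0474 FPKM in PLOD3 siRNA and 0.0440 to 0.117 FPKM in si NC. The part of these marker differences in the results below was not tested.

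The first bases that RefSeq gives for the host RNAs are shown. A TOP run, typical of ribosomal protein genes, is present at some of these starts and not at others. RefSeq start windows (GRCh38.p14) were found for 27 of the 31 genes. Each window below runs 5′ to 3′ from 20 bases before to 30 bases into the transcript, on the strand of the gene, and capitals mark the unbroken run of C and T that covers the first transcribed base (base 21 of the window).
SNHG5 (chr6:85678704-85678753, minus strand): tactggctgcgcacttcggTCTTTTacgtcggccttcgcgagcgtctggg
SNHG19 (chr16:2155329-2155378, minus strand): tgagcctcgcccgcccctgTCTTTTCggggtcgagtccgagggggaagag
SNHG12 (chr1:28581844-28581893, minus strand): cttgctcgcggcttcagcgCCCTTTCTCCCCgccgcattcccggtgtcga
SNHG4 (chr5:139274081-139274130, plus strand): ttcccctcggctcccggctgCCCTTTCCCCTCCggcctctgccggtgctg
SNHG1 (chr11:62855856-62855905, minus strand): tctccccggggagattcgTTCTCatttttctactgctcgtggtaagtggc
ZFAS1 (chr20:49278622-49278671, plus strand): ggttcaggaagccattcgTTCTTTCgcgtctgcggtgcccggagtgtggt
SNHG32 (chr6:31834896-31834945, plus strand): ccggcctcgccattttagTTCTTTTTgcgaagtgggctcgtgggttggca
SNHG3 (chr1:28505923-28505972, plus strand): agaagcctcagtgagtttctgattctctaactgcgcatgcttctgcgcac

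A C at the first base followed by at least 4 more C or T bases, read on the transcribed strand, stood at the start of 6 of the 17 tested host genes with a window (35.3%), against 5.45% of 12435 windows of all tested genes and 4.07% of all 35116 RefSeq windows. Of cytosolic ribosomal protein genes 48 of 82 windows (58.5%) had it. SNHG5, SNHG19, SNHG12, SNHG4, ZFAS1 and SNHG32 are the 6 genes, the first 4 of which were called higher below. Thus 4 of the 8 called hosts with a window had the run, as did 2 of the 9 tested hosts with a window that were not called. With a run of at least 4 bases from a C at the first base, the counts were 4 of 8 and 3 of 9. SNHG6, the called host without a window, could not be read, and a link between the run and the call was not tested. The other called hosts with a window, SNHG1, SNHG8, SNHG3 and GAS5, lacked the run at RefSeq's first base. In SNHG1 the run from the first base breaks after 3 bases and in SNHG8 after 1. In SNHG3 and GAS5 no C or T stands at the first base. The palindromic E-box CACGTG, the site that MYC and MAX bind, occurred in the promoter window (250 bases before to 50 bases after the first base, both strands being the same for a palindrome) of SNHG7 and SNHG30, that is in 2 of 17 windows of tested host genes, against 9.66% of the windows of all tested genes. The deposited table starts several of these genes elsewhere, ZFAS1 and SNHG32 further upstream, GAS5 163 bases and SNHG3 37 bases further downstream. RefSeq's first base of SNHG3 (28505943) is where the deposited table starts RCC1. The windows therefore show RefSeq's first base and not the start used for the counts. For GAS5 and SNHG3 they cannot show whether an RNA that starts elsewhere has the run.

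Of the 31 host genes, 21 had a mean FPKM of at least 1 over the 6 samples and were tested, and 9 of these were higher in PLOD3 siRNA and 0 lower (edgeR quasi-likelihood test over 12000 genes, adjusted p under 0.05). Over all tested genes 16.2% were called higher and 19.3% lower, or 35.5% in either direction. The count of 0 lower compares with 1 host gene, SNHG7, lower at an unadjusted p under 0.05 and 0 lower by DESeq2. The genes called were SNHG6, SNHG19, GAS5, SNHG4, SNHG1, SNHG3, SNHG8, SNHG12 and SNHG5, with increases of 1.26-fold to 1.61-fold. In 15 of the 21 tested host genes, and in 6 of the 9 called, a snoRNA lies inside an annotated exon. The values of these host genes may therefore include snoRNA reads, and the part of such reads was not tested. The median log2 fold change (PLOD3 siRNA over si NC) was 0.37 over the 21 host genes and 0.00 over all tested genes, and 19 of the 21 host genes had a value above 0, against 50.3% of all tested genes. In 12 of the 21 every PLOD3 siRNA sample stood above every si NC sample, against 24.6% of all tested genes, and in 1, SNHG7, every PLOD3 siRNA sample stood below, against 27.5%.

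The number called depended on the samples and on the correction for GC content and transcript length. It was 4 without si NC replicate 3 (SNHG4, SNHG5, SNHG6 and SNHG12, where 9.22% of all tested genes were called higher), 5 without si NC replicate 1 and 3 after both properties were corrected for (SNHG5, SNHG12 and SNHG19), where the median of the 21 fell to 0.16 on the log2 scale.

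**Figure D1:**
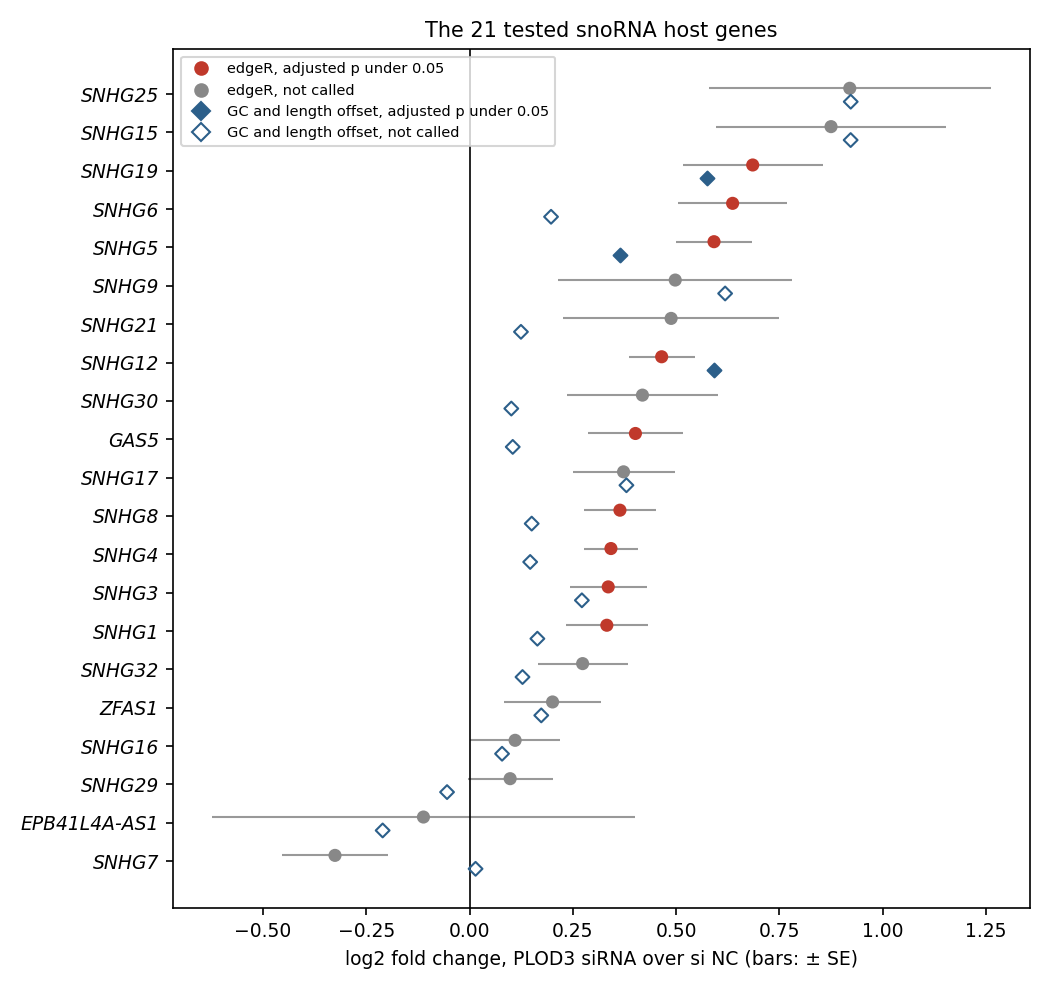
Log2 fold change of PLOD3 siRNA over si NC for the 21 tested snoRNA host genes, with all 6 samples in the fit. Circles with bars are the edgeR values ± SE (red, called at an adjusted p under 0.05) and diamonds the values after correction for GC content and transcript length (filled, called). Of the circles 19 lie above 0 and 9 are red, and 3 diamonds are filled.

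The summed level of the 21 host genes was 348, 397 and 342 FPKM in the PLOD3 siRNA samples and 278, 279 and 281 FPKM in the si NC samples. The mean was 362 ± 30.4 FPKM in PLOD3 siRNA and 279 ± 1.44 FPKM in si NC (SD, n = 3 each). SNHG6, SNHG29 and SNHG32 made up 50.4% of that sum in each group. PLOD3 siRNA replicate 2 held the highest of the 3 PLOD3 siRNA values for 12 of the 21 genes, and the PLOD3 siRNA samples were more spread out than the si NC samples.

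Among the hosts of box C/D snoRNAs, SNHG6, which holds SNORD87 and lies on chromosome 8 (66921684 to 66926398, minus strand, coordinates of the deposited table, which match GRCh38), was the most abundant member. It was at 81.4, 106 and 83.7 FPKM in PLOD3 siRNA and at 60.4, 55.1 and 59.98 FPKM in si NC. The groups did not overlap, and the difference of 0.64 on the log2 scale (SE 0.131) passed the edgeR test (adjusted p = 0.0131). After correction for GC content and length the SNHG6 value was 0.20 and the call was lost (edgeR adjusted p = 0.117).

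SNHG19, a 342-base spliced RNA that holds SNORD60 (chromosome 16, 2154797 to 2155358, minus strand), was at 35.8, 42.8 and 31.1 FPKM in PLOD3 siRNA and at 21.5, 25.4 and 21.7 FPKM in si NC. It had the largest fold change among the 9 called members, 1.61-fold (log2 0.69, SE 0.169, edgeR adjusted p = 0.0232), and kept the call after the correction for GC content and length (edgeR adjusted p = 0.0181). When each sample was left out in turn it was called in 2 of the 6 fits, those without PLOD3 siRNA replicate 3 and without si NC replicate 2.

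SNHG5, the host of SNORD50B (chromosome 6, 85650491 to 85678754, minus strand), was at 3.32, 3.23 and 2.90 FPKM in PLOD3 siRNA and at 2.07, 2.15 and 2.07 FPKM in si NC. The samples of each group lay close together, and SNHG5 had the smallest adjusted p of the members (log2 0.59, SE 0.0908, edgeR adjusted p = 0.00556). It was called in all 18 alternative fits in which it was tested.

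SNHG12, which holds SNORD99 and several H/ACA snoRNAs (chromosome 1, 28578538 to 28581878, minus strand), was at 5.14, 4.60 and 4.90 FPKM in PLOD3 siRNA and at 3.77, 3.43 and 3.41 FPKM in si NC (log2 0.47, SE 0.08, edgeR adjusted p = 0.00766). It too was called in all 18 alternative fits in which it was tested, and its value was larger after the correction for GC content (0.66). TRNAU1AP, which overlaps it on the opposite strand, was at 4.88, 5.02 and 4.41 FPKM in PLOD3 siRNA and at 3.81, 4.72 and 3.81 FPKM in si NC and was not called (edgeR adjusted p = 0.239).

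GAS5, whose RNA builds up in growth-arrested cells and binds the glucocorticoid receptor (chromosome 1, 173858559 to 173868882, minus strand), was at 22.3, 28.3 and 24.3 FPKM in PLOD3 siRNA and at 19.1, 19.2 and 18.7 FPKM in si NC. The groups did not overlap (log2 0.40, SE 0.115, edgeR adjusted p = 0.0361), and the call was lost after the correction for GC content (0.21, edgeR adjusted p = 0.215) and in 4 of the 6 leave-one-out fits. SNHG1, which holds SNORD22 and SNORD25 to SNORD28 and SNORD30 (chromosome 11, 62851984 to 62855953, minus strand), was at 12.7, 14.3 and 13.6 FPKM in PLOD3 siRNA and at 11.6, 9.54 and 11.2 FPKM in si NC. Its difference (log2 0.33, SE 0.0991, edgeR adjusted p = 0.0412) was called in 0 of the 6 leave-one-out fits, where the adjusted p ran from 0.0568 to 0.108, and in 7 of its 19 alternative fits, and the correction for GC content left 0.18 (edgeR adjusted p = 0.144).

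Of the other tested hosts that hold box C/D snoRNAs alone, none was called. SNHG29, the second most abundant member, averaged 52.0 ± 4.30 FPKM in PLOD3 siRNA and 48.7 ± 2.61 FPKM in si NC, and SNHG16 averaged 21.9 ± 1.72 and 20.4 ± 1.84 FPKM (SD, n = 3 each), with log2 values of 0.10 and 0.11. ZFAS1, which lies antisense to ZNFX1, averaged 8.86 ± 0.707 FPKM in PLOD3 siRNA and 7.75 ± 0.864 FPKM in si NC (SD, n = 3 each, log2 0.20, edgeR adjusted p = 0.223), so that this host with a TOP run was not called in any of its 19 alternative fits. SNHG32 averaged 40.3 ± 4.20 FPKM in PLOD3 siRNA and 33.5 ± 2.64 FPKM in si NC (SD, n = 3 each, log2 0.27, edgeR adjusted p = 0.0934), and SNHG30 averaged 3.69 ± 0.586 and 2.76 ± 0.441 FPKM (SD, n = 3 each, log2 0.42, edgeR adjusted p = 0.118). In each of these 5 genes the groups overlapped.

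Among the hosts of box H/ACA snoRNAs, 3 were called. SNHG4, which holds SNORA74A (chromosome 5, 139274102 to 139283244, plus strand), was at 16.9, 16.2 and 16.4 FPKM in PLOD3 siRNA and at 13.9, 12.7 and 12.5 FPKM in si NC (log2 0.34, SE 0.0645, edgeR adjusted p = 0.01). It was called in all 6 leave-one-out fits, and the call was lost after the correction for GC content (0.19, edgeR adjusted p = 0.0519). Its exons overlap those of MATR3 on the same strand, so reads could be split between them: MATR3 (ENSG00000280987) was at 32.4, 33.2 and 33.0 FPKM in PLOD3 siRNA and at 32.6, 22.1 and 26.2 FPKM in si NC (edgeR adjusted p = 0.116).

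SNHG3, which holds SNORA73A and SNORA73B (chromosome 1, 28505980 to 28510892, plus strand), was at 12.98, 10.1 and 12.6 FPKM in PLOD3 siRNA and at 9.92, 8.89 and 9.53 FPKM in si NC. PLOD3 siRNA replicate 2 lay just above the highest si NC sample (log2 0.34, SE 0.0937, edgeR adjusted p = 0.0339), and SNHG3 was called in 1 of the 6 leave-one-out fits, the one without that replicate. RCC1 has exons that overlap it on the same strand, so reads could be split here too, and RCC1 was at 32.5, 36.9 and 36.1 FPKM in PLOD3 siRNA and at 34.96, 24.4 and 24.1 FPKM in si NC (edgeR adjusted p = 0.114). SNHG8, the host of SNORA24 (chromosome 4, 118278709 to 118285316, plus strand), was at 4.75, 5.23 and 4.86 FPKM in PLOD3 siRNA and at 3.94, 3.85 and 3.79 FPKM in si NC (log2 0.36, SE 0.0876, edgeR adjusted p = 0.0214). SNHG8 was called in 4 of the 6 leave-one-out fits, and the call was lost after the correction for GC content and length (0.15, edgeR adjusted p = 0.115). PRSS12 on the opposite strand moved the other way, at 1.75, 1.22 and 1.80 FPKM in PLOD3 siRNA and 3.02, 2.51 and 2.84 FPKM in si NC (log2 -0.81, edgeR adjusted p = 0.00992).

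**Figure D2:**
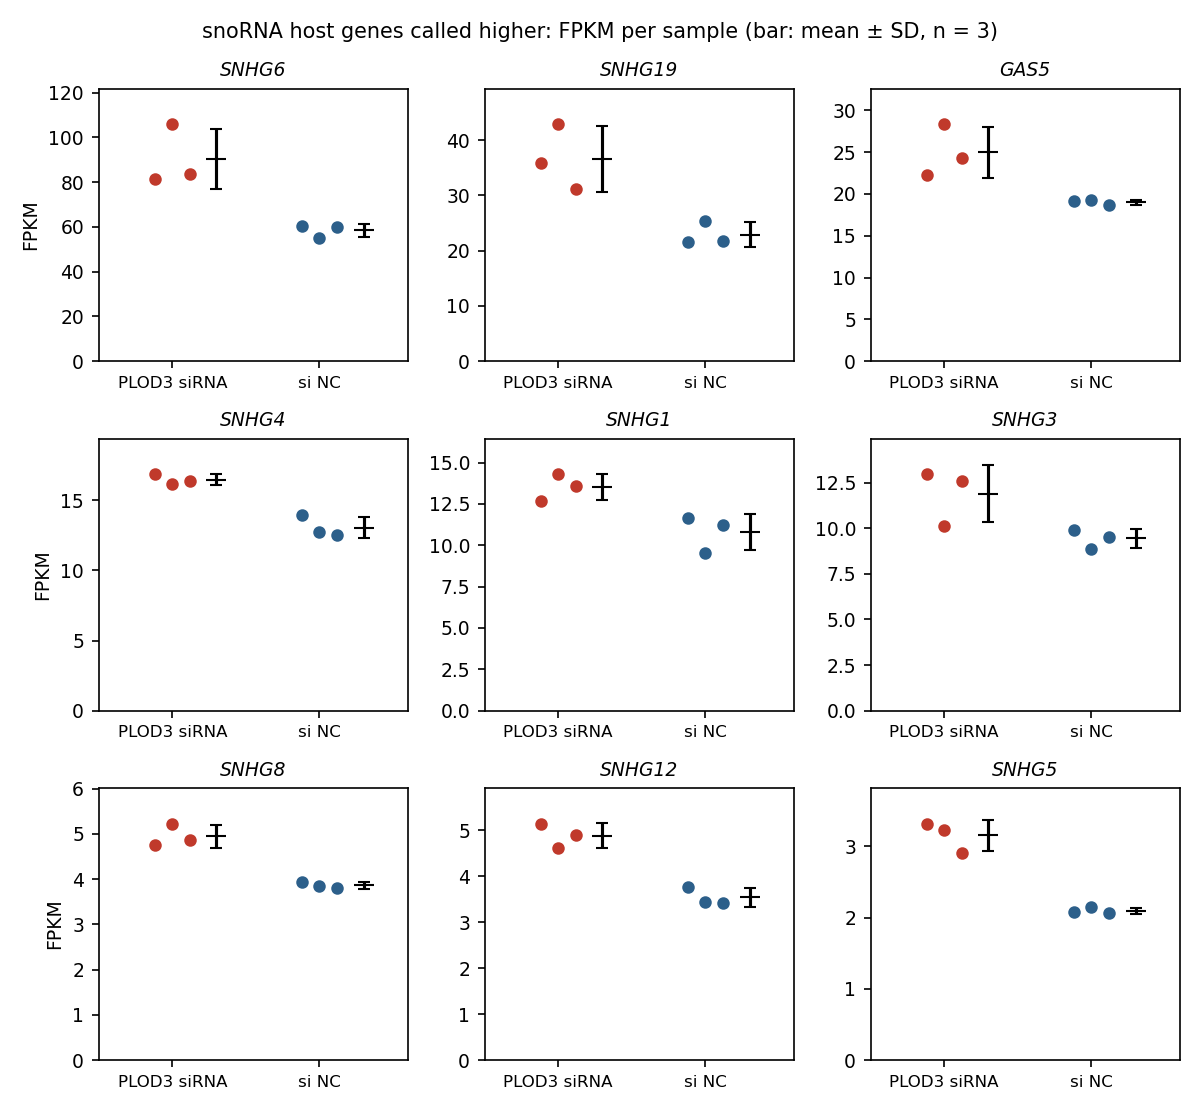
FPKM of the 9 host genes called higher, with 1 point per sample, PLOD3 siRNA in red on the left of each panel and si NC in blue, and bars for mean ± SD (n = 3). Each axis starts at 0 and has its own scale. In all 9 panels every PLOD3 siRNA point lies above every si NC point, with the narrowest gap in SNHG3.

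SNHG15 and SNHG25 had the largest fold changes of all 21 tested members and were not called. SNHG15, the host of SNORA9, was at 4.70, 5.29 and 4.14 FPKM in PLOD3 siRNA and at 1.58, 2.94 and 3.16 FPKM in si NC (log2 0.87, SE 0.279, edgeR adjusted p = 0.0502). Without si NC replicate 1, its lowest sample, SNHG15 was called. SNHG25, the host of SNORD104 and SNORA50C, was at 4.32, 8.74 and 5.99 FPKM in PLOD3 siRNA and at 4.21, 3.51 and 2.42 FPKM in si NC (log2 0.92, SE 0.341, edgeR adjusted p = 0.0777), on 61 to 160 count units per sample. DESeq2 called both genes. SNHG17, the host of the SNORA71 family, also had no overlap between the groups, with averages of 1.41 ± 0.236 FPKM in PLOD3 siRNA and 1.09 ± 0.0591 FPKM in si NC (SD, n = 3 each, log2 0.37, edgeR adjusted p = 0.0561).

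SNHG7 and EPB41L4A-AS1 were the 2 members with log2 values below 0. SNHG7, the host of SNORA17A and SNORA17B, was at 4.16, 4.38 and 4.75 FPKM in PLOD3 siRNA and at 5.20, 4.98 and 6.54 FPKM in si NC (log2 -0.33, SE 0.129, edgeR adjusted p = 0.092). Its longest transcript has a GC content of 65.9%, and after the correction for GC content its value was 0.06 (edgeR adjusted p = 0.779). DIPK1B, which overlaps SNHG7 on the opposite strand, was lower in PLOD3 siRNA (log2 -0.37, edgeR adjusted p = 0.0264) and likewise stood near 0 after that correction (-0.01). DIPK1B was called in 1 of the 6 leave-one-out fits. EPB41L4A-AS1, the host of SNORA13, was at 1.94, 4.47 and 7.34 FPKM in PLOD3 siRNA and at 6.41, 5.80 and 2.71 FPKM in si NC, the widest spread of any tested member (log2 -0.11, SE 0.511, edgeR adjusted p = 0.884), and its direction changed when PLOD3 siRNA replicate 1 was left out (0.26). SNHG9, with SNORA78, averaged 5.37 ± 1.73 FPKM in PLOD3 siRNA and 3.82 ± 0.477 FPKM in si NC, and SNHG21, with the Cajal body RNA SCARNA15, averaged 2.19 ± 0.496 and 1.56 ± 0.336 FPKM (SD, n = 3 each), both with overlapping groups and neither called (edgeR adjusted p = 0.211 and 0.19).

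The other 10 members had a mean FPKM under 1 and were not tested. SNHG11, with SNORA60 and SNORA71E, was just under the limit, at 0.827 ± 0.127 FPKM in PLOD3 siRNA and 0.955 ± 0.0655 FPKM in si NC (SD, n = 3 each), where SNHG17, just over it, averaged 1.41 and 1.09 FPKM. SNHG26 averaged 0.80 and 0.431 FPKM, SNHG10 0.667 and 0.546 FPKM, SNHG20 0.376 and 0.189 FPKM, SNHG31 0.159 and 0.147 FPKM and SNHG22 0.101 and 0.0875 FPKM, each with PLOD3 siRNA first. SNHG28 was listed without reads in all PLOD3 siRNA samples and had 93, 5 and 108 count units in the si NC samples. SNHG14, the long host of the SNORD115 and SNORD116 clusters of the Prader-Willi region, had 0 to 8 count units per sample in PLOD3 siRNA and 6 to 55 in si NC, and SNHG18 and SNHG27 were listed without reads in every sample.

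The snoRNAs held by the host genes were then read beside their hosts. The table lists 144 snoRNA genes inside a member on the same strand, 84 of them in SNHG14, and at least 1 inside every member except GAS5. For GAS5 the table has no such row, so snoRNAs of GAS5 could not be read, which does not mean that it holds none. Of the 144, 20 had a mean FPKM of at least 1, and 5 of these were higher and 0 lower in PLOD3 siRNA by edgeR, against 16.2% and 19.3% of all tested genes. By an unadjusted p under 0.05, by DESeq2 and by limma 0 were lower as well. Their median log2 fold change was 0.73, and 17 of the 20 were above 0. After the correction for GC content and length the median was 0.24 and 0 were called. The other snoRNA genes of the table, outside these hosts, had 19 of 71 tested members called higher and 0 lower by edgeR, with a median of 0.83, and 4 were lower at an unadjusted p under 0.05 and 1 by DESeq2 and by limma. With GC content and length corrected for, their median was 0.48, with 12 called higher and 2 lower.

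The sequences of 3 box C/D snoRNAs follow, with the box C letters TGATGA and the last CTGA, the box D letters, in capitals, read on the snoRNA strand only. Both occur in that order in 31.2% of the 995 snoRNA transcripts of GENCODE release 29 (GRCh38), from which these sequences were taken. SNORD27 and ENSG00000281010 were called higher, and SNORD30 shares its host with SNORD27.
SNORD27 in SNHG1 (chr11:62855012-62855083, minus strand): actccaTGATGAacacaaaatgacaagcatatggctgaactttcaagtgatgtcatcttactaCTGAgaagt
SNORD30 in SNHG1 (chr11:62853663-62853732, minus strand): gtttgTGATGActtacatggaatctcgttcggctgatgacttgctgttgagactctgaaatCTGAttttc
ENSG00000281010 in SNHG19 (chr16:2155025-2155104, minus strand): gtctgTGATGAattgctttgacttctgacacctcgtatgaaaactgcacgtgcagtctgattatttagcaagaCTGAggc

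SNORD87 in SNHG6 was at 19.5, 27.7 and 19.9 FPKM in PLOD3 siRNA and at 13.3, 8.27 and 11.3 FPKM in si NC (log2 1.05, SE 0.256, edgeR adjusted p = 0.0225). SNORD27 in SNHG1 was at 23.3, 24.7 and 18.9 FPKM in PLOD3 siRNA and at 15.6, 11.5 and 11.5 FPKM in si NC (log2 0.80, SE 0.215, edgeR adjusted p = 0.0298). Both lie inside an annotated exon of the host, so reads of the snoRNA and of the host cannot be fully told apart. SNORD99 in SNHG12 was at 5.79, 7.05 and 10.5 FPKM in PLOD3 siRNA and at 2.79, 4.32 and 3.11 FPKM in si NC (log2 1.18, SE 0.343, edgeR adjusted p = 0.0384). SNORA71A in SNHG17 was at 2.40, 1.80 and 2.76 FPKM in PLOD3 siRNA and at 0.389, 0.567 and 1.22 FPKM in si NC (log2 1.58, SE 0.459, edgeR adjusted p = 0.0385). These 2 and ENSG00000281010 in SNHG19 do not lie inside an annotated host exon.

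ENSG00000281010, which the table lists at almost the same position as SNORD60, was at 7.38, 9.52 and 8.21 FPKM in PLOD3 siRNA and at 5.60, 3.21 and 3.65 FPKM in si NC (log2 1.02, SE 0.288, edgeR adjusted p = 0.0353), while SNORD60 itself averaged under 1 FPKM. Reads could have been divided between these 2 rows. Every PLOD3 siRNA sample stood above every si NC sample in all 5, which were picked by the call on these same samples. Over the 20 tested snoRNAs this held for 10, against 24.6% of all tested genes. None of the 5 kept its call in every leave-one-out fit or after the correction for GC content and length. SNORD87 was called in 3 of the 6 leave-one-out fits, SNORD27 and SNORD99 in 2, and SNORA71A and ENSG00000281010 in 1.

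Of the 20 tested snoRNAs, 18 sat in a tested host, and in 13 of these the snoRNA and the host had the same sign. That count is to be read beside the 16 of the 18 snoRNAs, and the 19 of the 21 tested hosts, that lay above 0. The fold change of the snoRNA was larger than that of its host in 13 of the 18. SNORD104 in SNHG25, the most abundant snoRNA of the set, was at 40.1, 53.7 and 46.1 FPKM in PLOD3 siRNA and at 36.1, 33.1 and 35.6 FPKM in si NC, without overlap, and was not called (log2 0.43, edgeR adjusted p = 0.0953). SNORA73B in SNHG3 (log2 0.37), SNORD48 in SNHG32 (log2 0.27) and SNORA24 in SNHG8 (log2 0.79) were not called either (edgeR adjusted p = 0.192, 0.426 and 0.107). SNORA50C in SNHG25 (log2 0.80) and SNORD12B and SNORD12C in ZFAS1 (log2 0.96 and 1.58) were not called (edgeR adjusted p = 0.173, 0.516 and 0.0773), and SNORD12C had no overlap between the groups. In hosts whose value was below 0, SNORA17B and AL355987 in SNHG7 had log2 values of 0.35 and 0.10 and SNORA13 in EPB41L4A-AS1 0.66 (edgeR adjusted p = 0.631, 0.797 and 0.214). SNORD93 and SCARNA13, whose hosts SNHG26 and SNHG10 were not tested, had log2 values of -0.76 and 0.59 (edgeR adjusted p = 0.401 and 0.691). SNORD30 in SNHG1, shown above, was at 21.3, 19.7 and 25.3 FPKM in PLOD3 siRNA and at 0.127, 8.31 and 11.5 FPKM in si NC, and was not called (log2 1.68, edgeR adjusted p = 0.168). SNORD50B in SNHG5 had the lowest value, -3.16, but was at 0.133, 0.123 and 0.145 FPKM in PLOD3 siRNA and at 5.80, 0.111 and 0.098 FPKM in si NC, so that 1 library decided it (edgeR adjusted p = 0.184). SNORA44 in SNHG12 was at 4.46, 0.00799 and 0.00909 FPKM in PLOD3 siRNA and at 3.94, 3.47 and 2.01 FPKM in si NC (edgeR adjusted p = 0.531).

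**Figure D3:**
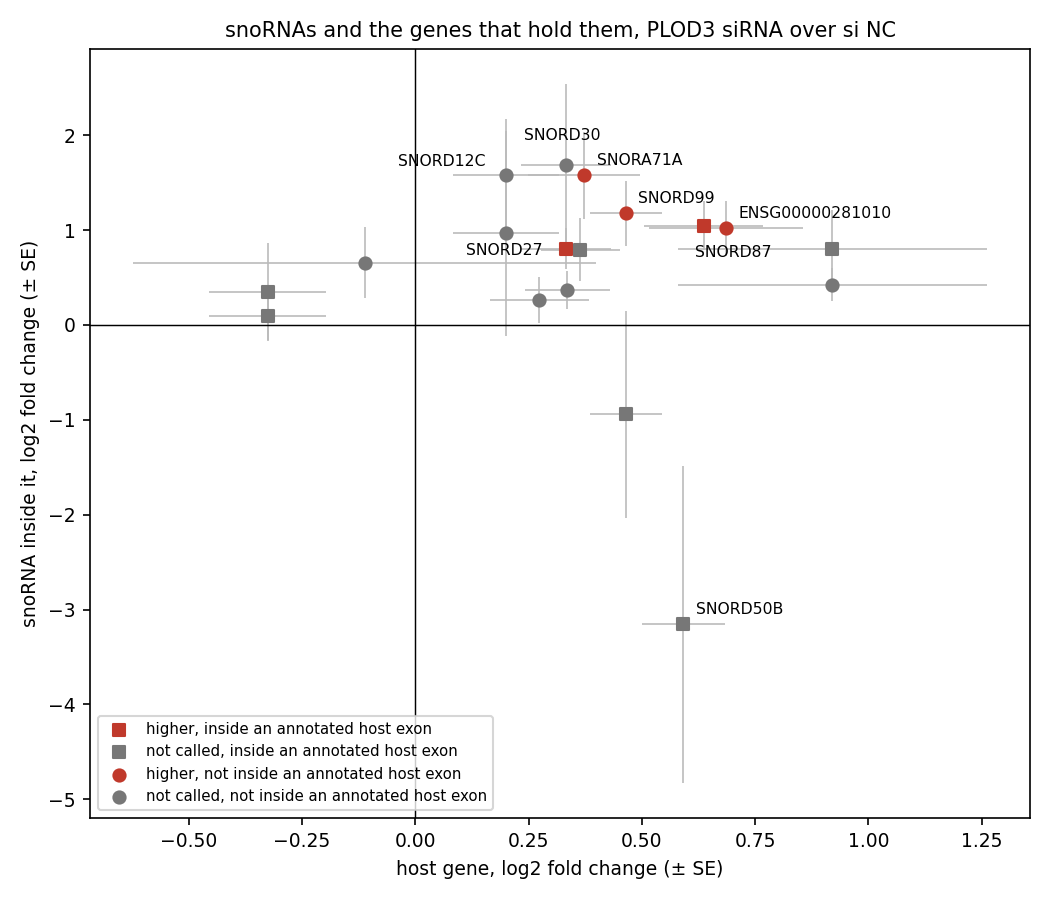
Log2 fold change (PLOD3 siRNA over si NC, ± SE) of the 18 tested snoRNAs that lie in a tested host gene, against the log2 fold change of that host. Red marks snoRNAs called higher and squares those inside an annotated host exon. Of the points 16 lie above 0 on the vertical axis, and SNORD50B, the lowest, rests on 1 si NC library.

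The log2 fold changes of all tested genes moved with GC content and with length in these libraries, and the host genes are given beside genes of the same class. With the tested genes split into 3 equal classes by GC content, 30.7% were called higher and 3.84% lower in the lowest class (23.1% to 44.2% GC), and 3.93% higher and 36.8% lower in the highest (53.9% to 78.7% GC). Of the 6 host genes in the lowest class, 4 were called higher and all 6 lay above 0 (median log2 0.41, against 0.25 for all genes of that class). Of the 9 in the middle class, where 14.1% of all genes were called higher, 3 were called and 8 lay above 0 (median 0.34, against 0.01). Of the 6 in the highest class, SNHG12 and SNHG19 were called and 5 lay above 0 (median 0.48, against -0.28).

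By length, the 6 host genes with a longest GENCODE transcript under 1000 bases had a median of 0.57, against 0.23 for all genes of that class, the 7 of 1000 to under 2000 bases 0.40, against 0.08, and the 8 of 2000 bases or more 0.33, against -0.04. In each length class 3 were called higher, where 16.0%, 19.1% and 15.7% of all genes of the class were, from short to long. After the correction for GC content the median of the 21 was 0.35 and 8 were called, with 12.8% of all tested genes called higher. With length corrected as well it was 0.16 and 3 were called, with 14.1% of all tested genes called higher. The part of GC content and length in the host gene values was not tested beyond these corrections.

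**Figure D4:**
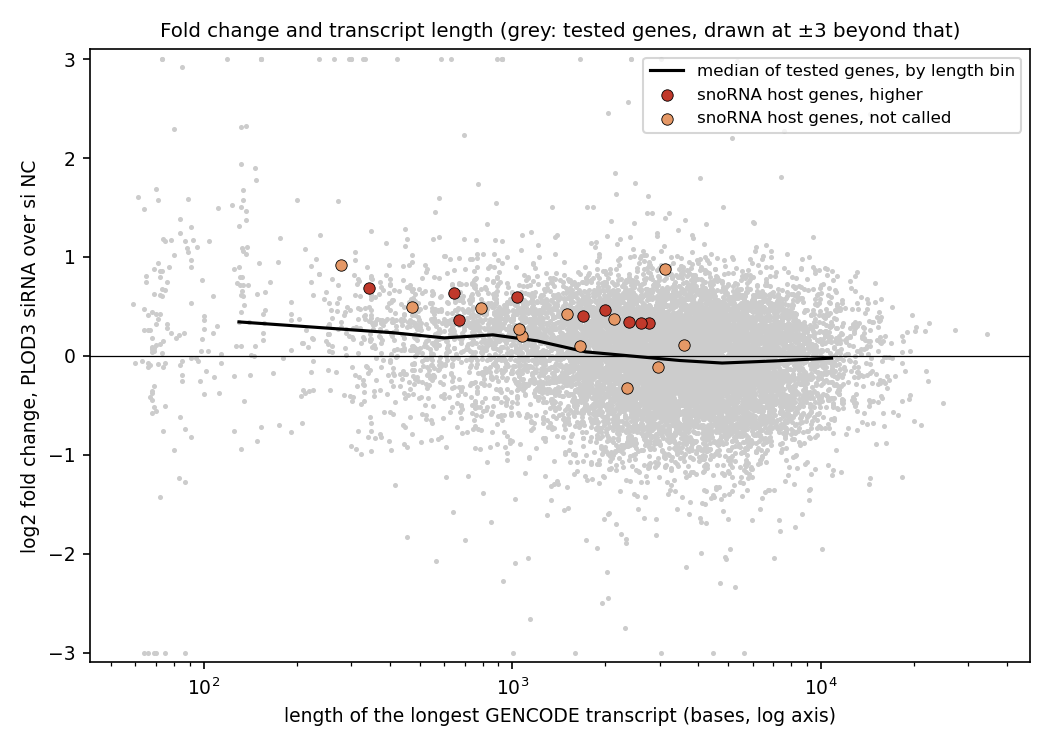
Log2 fold change of PLOD3 siRNA over si NC (values beyond 3 in either direction drawn at 3) against the length of the longest GENCODE transcript on a log axis. Grey points are all tested genes with an annotated length, the line their median by length bin, and the larger points the 21 host genes, red where called higher. The line lies above 0 for short transcripts and near or under 0 for long ones, and most host genes lie above it.

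Other genes of the same pathway were read from the same fit, in which 16.2% of all tested genes were called higher, 19.3% lower, and 50.3% lay above 0. Of the proteins that bind and assemble snoRNAs, 6 of 18 were higher (33.3%) and 0 lower (median log2 0.21, and 18 of 18 above 0). By an unadjusted p under 0.05, by DESeq2 and by limma 0 of these were lower as well. NOP58 and NOP56, core proteins of box C/D particles, were at 45.0 ± 1.94 and 74.0 ± 3.48 FPKM in PLOD3 siRNA and at 26.1 ± 2.27 and 47.4 ± 1.87 FPKM in si NC (SD, n = 3 each, log2 0.79 and 0.65, edgeR adjusted p = 0.00242 and 0.00287). NOP56 is itself a host of snoRNAs. GAR1, a core protein of H/ACA particles, differed by 0.33 (edgeR adjusted p = 0.0292) and was called in 1 of the 6 leave-one-out fits.

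The other genes of the table that hold a snoRNA on their strand, mostly protein-coding, had 50 of 208 tested members higher and 30 lower (24.0% and 14.4%, median 0.18), and 28 of the 208 are ribosomal protein genes. By the smallest p, CAMK1D and LAMB1 fell (log2 -1.29 and -0.95) and ODC1, the first enzyme of polyamine synthesis, rose (log2 1.06, edgeR adjusted p = 0.0016, 0.00215 and 0.00226). Other long noncoding RNA genes had 45 of 457 tested members higher and 44 lower (9.85% and 9.63%, median -0.02).

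Cytosolic ribosomal protein genes had a share of members called higher close to that of all tested genes, with 12 of 81 tested members higher and 0 lower by edgeR (14.8% higher, against 16.2% of all tested genes, median 0.28, and 75 of 81 above 0), with 0 lower at an unadjusted p under 0.05, by DESeq2 and by limma. RPL7 was at 527 ± 27.5 FPKM in PLOD3 siRNA and 354 ± 24.0 FPKM in si NC (SD, n = 3 each, log2 0.58, edgeR adjusted p = 0.00424), and RPS27L and RPS24 rose by 0.56 and 0.43 on the log2 scale (edgeR adjusted p = 0.0129 and 0.0137). RPS24 lost the call after the correction for GC content (0.23, edgeR adjusted p = 0.0551) and RPL7 after that for GC content and length (0.21, edgeR adjusted p = 0.0821). Of 18 other mRNAs listed as TOP mRNAs, 4 were higher and 3 lower (22.2% and 16.7%, against 16.2% and 19.3% of all tested genes, median 0.13), and 11 of the 14 windows found for them had the run defined above. The nucleolar protein NPM1 was at 560 ± 10.3 FPKM in PLOD3 siRNA and 320 ± 27.6 FPKM in si NC (SD, n = 3 each, log2 0.81, edgeR adjusted p = 0.00255), and HNRNPA1 and EEF1D rose by 0.59 and 0.43 on the log2 scale (edgeR adjusted p = 0.00367 and 0.018), where EEF1D was called in 4 of the 6 leave-one-out fits.

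Of 17 NMD factors, 4 were higher and 4 lower (23.5% each, against 16.2% and 19.3% of all tested genes, median 0.19). After the correction for GC content 3 were higher and 0 lower, and with length corrected as well 8 were higher and 0 lower. The exon junction proteins MAGOHB and MAGOH rose (log2 0.96 and 0.69, edgeR adjusted p = 0.002 and 0.00264), and SMG6, the endonuclease of the pathway, fell (log2 -0.35, edgeR adjusted p = 0.0105, and 0.0699 after the correction for GC content). Of 10 protein-coding mRNAs known to be NMD-sensitive, 4 were higher (40.0%, against 16.2% of all tested genes) and 0 lower by edgeR (median 0.45), with 0 lower at an unadjusted p under 0.05, by DESeq2 and by limma. DDIT3, UPP1 and ATF3 were at 6.98 ± 0.223, 3.04 ± 0.0921 and 3.24 ± 0.246 FPKM in PLOD3 siRNA and at 3.33 ± 0.359, 1.61 ± 0.187 and 1.94 ± 0.222 FPKM in si NC (SD, n = 3 each, edgeR adjusted p = 0.00367, 0.0039 and 0.00732). DDIT3 and ATF3 are also targets of the stress factor ATF4. MYC, which activates many genes of ribosome production, was at 37.5, 3.14 and 38.9 FPKM in PLOD3 siRNA and at 4.01, 5.01 and 4.17 FPKM in si NC. MYC passed the edgeR test (adjusted p = 0.0487) and lost the call in 5 of the 6 leave-one-out fits. Of the 9 genes of the MYC network list 1, MYC, was higher and 2 lower (11.1% and 22.2%, against 16.2% and 19.3% of all tested genes, median 0.02). MNT and MXD4, antagonists of MYC, fell (log2 -0.65 and -0.90, edgeR adjusted p = 0.00875 and 0.00405), and MNT lost the call after the correction for GC content and length (edgeR adjusted p = 0.0914). The antagonists MXD1, MXI1 and MXD3 were not called (log2 0.01, 0.01 and 0.06).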

How the data were processed

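RNA-seq values of 6 HCT116 samples were used, grouped by their titles into PLOD3 siRNA and si NC. The authors deposited, per the file headers, FPKM and whole-number estimated counts for 60612 genes in 12 columns, with 0.0001 FPKM for a gene without reads; 0 value columns were unmapped. Per the submitters' processing notes the tools were StringTie 1.3.4d, HISAT2 2.0.4 and cutadapt 1.9. For the build, annotation, strand setting and counting nothing is stated in those notes or the labels. Low counts pile up at multiples of 4. The table's positions overlapped GENCODE release 29 (GRCh38) for 99.98% of the 58394 shared identifiers.

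Genes were compared when their FPKM averaged 1 or more over the 6 samples (12000 genes), with edgeR 4.0.16 in R 4.3.3 (TMM, quasi-likelihood, two-sided, Benjamini-Hochberg over all 12000, threshold 0.05), as the design foresaw for counts. SE is the log2 fold change divided by the root of F. Alternatives used limma 3.58.1, DESeq2 1.42.0, other scalings, filters and units, loess offsets (span 0.5) on GC content and length of the longest GENCODE transcript (11968 genes), left-out samples and a replicate block. The edgeR script was tested on simulated data.

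Every tested host gene and every tested snoRNA inside a host gene is named, and of each list up to 3 called genes with the smallest p, chromosome Y left out. The overlapping genes were picked after values were seen. Members and lists were chosen with earlier results of these data known.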

Additional observations from a re-analysis of the deposited data

How the results depend on the processing

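With all 21 host genes tested, edgeR called 9 higher with TMM and with RLE size factors, limma called 9 on log2(FPKM + 1), and 10 were called with upper-quartile factors, 12 with DESeq2 and 13 by limma on log2(TPM + 1), a unit that moved the median of all genes to 0.10. The number was 3 with the GC and length offset and 4 with the replicate block and the GC offset together. With a mean FPKM of at least 5 it was 4 of the 11 host genes left. Leaving out each sample in turn gave 4 to 7 higher and 0 lower. Without any filter 6 were higher and 1, SNHG28, lower, where 29 host genes were tested. Correlations of the deviations of same-numbered samples were 0.0486, -0.0107 and -0.023, and those of unlike numbers ran from -0.033 to 0.0501. These values cannot settle whether same-numbered samples were handled together, which the labels do not say. With the number as a replicate block 8 of the 9 calls remained, all but SNHG1. Over the named host genes, 324 of the single values kept direction and side of the threshold, 43 lost the call, 15 gained it and 7 changed direction. The 7 were SNHG7 at 0.06, 0.0145 and 0.0744 under the GC offset, the GC and length offset and the block with the GC offset, SNHG29 at -0.0545 under the GC and length offset, and EPB41L4A-AS1 at 0.26, 0.09 and 0.04 without PLOD3 siRNA replicate 1, si NC replicate 1 and si NC replicate 2, in a leave-one-out range of -0.5965 to 0.2583. The cause was not tested. The same alternatives were run, chosen after the data were seen, for the 20 tested snoRNAs, the genes that overlap a host gene and the called genes named from the lists. Of these, KRT19 changed direction under the GC offset and under the block with it (0.0926 and 0.0933), SNORD50B without si NC replicate 1 (-3.7324 to 0.181 over the left-out samples), SNORA17B without si NC replicate 2 (-0.0488 to 0.6389), SNORD12B without PLOD3 siRNA replicate 3 (-0.2369 to 1.8749), and AL355987 under the GC and length offset (-0.1491) and without si NC replicate 2 (-0.0217 to 0.2689). SNHG25, SNHG9 and SNHG21 had 61 to 258 count units per sample, the fewest of the tested host genes.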
